A study of Homo sapiens with 6 samples.

Results

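S100 proteins are a family of small calcium sensors found in vertebrates. Each carries a pair of EF-hand loops, which bind calcium in most members, and most members work as dimers. Bound calcium exposes a surface that grips partner proteins such as annexins and cytoskeletal motors. In breast tissue some members are linked to epithelial cells and to keratinocyte differentiation, S100A4 is a classic marker of mesenchymal and migratory cells, and S100A8 and S100A9 are best known from neutrophils and monocytes. The set described here held 10 S100 genes fixed by name, out of 37887 rows in the count table, and all 10 were found. It was split from general knowledge into 6 epithelial-type genes (S100A2, S100A8, S100A9, S100A14, S100A16 and S100P), 2 mesenchymal-type genes (S100A4 and S100A6) and 2 broadly expressed genes (S100A10 and S100A11), and 11 further S100 genes served as the rest of the family.

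The cells were MDA-MB-436, a BRCA1-mutant line of triple-negative breast cancer, in which an shRNA against MUC1 is switched on by doxycycline from a stably held vector. The 3 control libraries came from these same vector-bearing cells with 0.1% DMSO vehicle, and the 3 shMUC1 libraries from cells given doxycycline at 500 ng/ml. The titles call the former control shRNA, but the treatment labels give DMSO and the design text describes a single vector in both groups. No library analysed here had doxycycline without the MUC1 shRNA, so doxycycline and silencing cannot be told apart. The duration of treatment was not given in the sources used here. Totals ran from 18678307 to 27825546 counts per library. MUC1 had 93, 84 and 102 counts in control and 72, 51 and 34 in shMUC1 libraries, which was a fall by 0.84 in log2 units (SE 0.214; adjusted p 0.00119, edgeR quasi-likelihood test). Every shMUC1 library lay below every control library.

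Rises were found among S100 genes classed here as epithelial, mesenchymal and broadly expressed, and the classing of S100A6 and S100A16 is loose. Of the 10 genes, 4 were higher in shMUC1 cells at an adjusted p under 0.05 (S100A6, S100A10, S100A16 and S100A2), 0 were lower, 2 passed the filter on low counts without a call (S100A11 and S100A4) and 4 had too few counts to test (S100A8, S100A9, S100A14 and S100P). None of the 4 passed a fold change of 2. Over all 15355 genes tested, 25.2% were higher and 23.6% lower at the same threshold, and with a fold change over 2 as well the shares were 2.21% and 3.74%. Power rises with counts, so the share was also taken over the 5162 genes averaging 1000 counts or more, where 39.4% were higher and 29.4% lower. Of the 4 S100 genes in that range, 3 were higher and S100A11 had no call.

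All but S100P lie on the long arm of chromosome 1, where the family forms a cluster beside the epidermal differentiation genes. In GENCODE release 29, on build GRCh38, S100A10 is at chr1:151982915-151994390 and S100A11 at chr1:152032506-152047907, at the edge of the cluster. S100A9 (chr1:153357854-153361027) and S100A8 (chr1:153390032-153391188) come next. They are followed by S100A6 (chr1:153534599-153536244), S100A4 (chr1:153543613-153550136), S100A2 (chr1:153561108-153567890), S100A16 (chr1:153606886-153613145) and S100A14 (chr1:153614255-153616986). S100P is apart, at chr4:6693069-6697170. S100A9 and S100P are on the plus strand and the other 8 are on the minus strand. Exons of S100A6 share 23 bases (2.37% of its exon length) with an antisense gene, BX470102.1, and no exon of the other 9 overlaps an annotated gene. S100A11 has 2 processed pseudogenes on chromosome 7 with 0 to 2 counts in each library, so the split of reads between near-identical copies is uncertain for S100A11. Pseudogenes of the other members were not looked up.

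Promoter windows show how the members differ in sequence near their starts. RefSeq windows on GRCh38.p14, from 250 bases before to 50 bases after each annotated start, were found for all 10 genes (14 windows in all). They were searched on both strands for 5 motifs. The GC box was searched as GGGCGG, the word bound by SP1. The E-box was searched as CACCTG, which ZEB and SNAI repressors are known to bind. The TATA box, a core promoter element, was searched only as the exact word TATAAA. The AP-1 motif was searched as TGANTCA, and an NF-kB motif was searched as well. None of these words contains another. Of the sequences below, S100A6 and S100A10 are shown as the genes with the largest rises, S100A16 as an epithelial-type gene that rose and S100A14 as one that stayed near 0 counts. Capitals mark matches to any of these letters, and all 4 windows are on the minus strand, written 5′ to 3′ along the gene.
S100A6 (chr1:153535942-153536241): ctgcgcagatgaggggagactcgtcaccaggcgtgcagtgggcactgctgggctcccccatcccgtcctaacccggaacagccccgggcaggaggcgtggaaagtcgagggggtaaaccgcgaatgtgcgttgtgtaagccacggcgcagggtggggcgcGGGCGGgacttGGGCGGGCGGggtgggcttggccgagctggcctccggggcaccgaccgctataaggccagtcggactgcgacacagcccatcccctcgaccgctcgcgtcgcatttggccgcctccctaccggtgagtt
S100A10 (chr1:151993810-151994109): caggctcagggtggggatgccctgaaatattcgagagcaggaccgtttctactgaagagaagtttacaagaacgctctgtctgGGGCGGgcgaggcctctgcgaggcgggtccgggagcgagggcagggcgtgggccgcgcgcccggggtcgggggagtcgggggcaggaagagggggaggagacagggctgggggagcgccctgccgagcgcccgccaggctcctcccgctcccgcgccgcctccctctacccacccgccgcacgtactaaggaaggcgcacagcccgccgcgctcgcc
S100A16 (chr1:153613088-153613387): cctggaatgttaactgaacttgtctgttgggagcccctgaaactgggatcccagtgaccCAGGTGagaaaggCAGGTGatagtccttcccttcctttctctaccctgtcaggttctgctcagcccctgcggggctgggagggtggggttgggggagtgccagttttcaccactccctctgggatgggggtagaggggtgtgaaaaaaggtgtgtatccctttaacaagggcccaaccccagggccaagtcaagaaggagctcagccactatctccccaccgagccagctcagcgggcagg
S100A14 (chr1:153616276-153616575): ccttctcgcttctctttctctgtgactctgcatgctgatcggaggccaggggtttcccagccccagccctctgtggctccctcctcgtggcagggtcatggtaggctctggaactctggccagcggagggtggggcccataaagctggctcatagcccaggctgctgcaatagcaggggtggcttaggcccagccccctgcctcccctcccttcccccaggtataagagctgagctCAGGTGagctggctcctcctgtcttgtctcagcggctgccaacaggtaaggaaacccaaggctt

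S100A6 held 3 GC boxes, starting at positions -90, -79 and -75 from its start with the last pair overlapping, and S100A10 held 1 at -167. Neither held an E-box or the exact word TATAAA, though the S100A6 window held the near word TATAAG. S100A11 also held no E-box and no TATAAA, with 1 GC box at -68. This combination, a GC box with no E-box and no TATAAA, was found in 33.3% of 27305 genes with a window. S100A16 held 2 E-boxes in the window shown, at -191 and -178, and S100A14 held 1 at -14. An E-box was present in 7 of the 10 genes (S100A2, S100A4, S100A8, S100A9, S100A14, S100A16 and S100P) against 24.1% of all genes. It was in each of the 4 genes with too few counts to test, and also in the tested S100A2, S100A4 and S100A16. Among the 9 other S100 genes with a window, 4 held it (S100A5, S100A7, S100A7A and S100Z). S100A1, S100A12 and S100G, which also had too few counts to test, did not, nor did the tested S100A3 and S100A13. The word TATAAA was in 4 (S100A4, S100A8, S100A9 and S100P) against 14%, and S100A14 held TATAAG instead. A GC box was in 5 against 48.3%, AP-1 letters in S100A2 alone against 9.37%, and the NF-kB motif in none against 2.33%. The windows of 1 gene can overlap, as those of S100A8 do, and a match is a description of letters, not of a bound site.

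**Figure D1:**
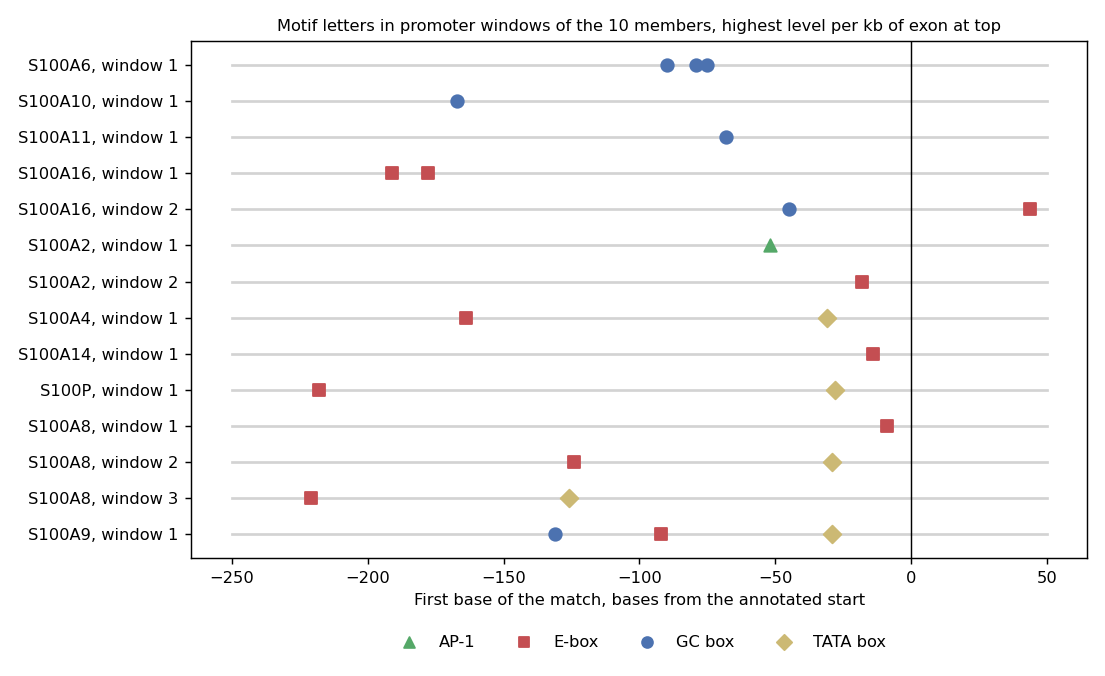
Map of motif letters in the 14 promoter windows of the 10 S100 genes, with distance from the annotated start in bases on the x axis, 1 line per window, and genes ordered by level per kb of exon. GC boxes lie in S100A6, S100A10 and S100A11, which carry no E-box, and also in S100A16 and S100A9, which do. E-boxes lie in 7 of the 10 genes, from S100A16 near the top to S100A9 at the bottom.

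Levels differed by orders of magnitude within the family. Per kb of exon, in control cells, S100A6 stood highest at 264 ± 17.7 CPM per kb (counts per 1000000 counts, divided by exon length; SD, n = 3). S100A10 followed at 134 ± 7.75, S100A11 at 116 ± 4.84 and S100A16 at 69.0 ± 2.72 CPM per kb (SD, n = 3 each). These 4 neighbours in the order did not overlap between any libraries of the control group. Exon length here merges all annotated exons of a gene, and the order depends on it. In CPM, not divided by length, S100A16 at 117 was above S100A11 at 79.0 in control. S100A4 at 2.58 ± 0.495 and S100A2 at 2.40 ± 0.773 CPM per kb overlapped each other (SD, n = 3 each), and S100P, S100A14, S100A8 and S100A9 were at or below 0.0735 CPM per kb on average. The order of the first 4 was the same in shMUC1 cells, at 390 ± 4.28, 200 ± 4.36, 121 ± 4.12 and 86.0 ± 1.76 CPM per kb. In shMUC1 cells S100A2, at 3.35 ± 0.413, lay above S100A4, at 2.002 ± 0.319 CPM per kb, in all libraries (SD, n = 3 each).

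The 10 genes together took 656, 634 and 708 CPM in control libraries and 929, 929 and 913 CPM in shMUC1 libraries. This was 0.0671% ± 0.00421 of all counts in control and 0.0917% ± 0.000629 in shMUC1 cells (SD, n = 3 each), a ratio of summed CPM of 1.39. S100A6, S100A10, S100A11 and S100A16 made up 99.0% of the sum in control and 99.2% in shMUC1 cells, so the sum says little about the remaining 6 genes. In bulk RNA, more expressing cells and more RNA per cell cannot be told apart.

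**Figure D2:**
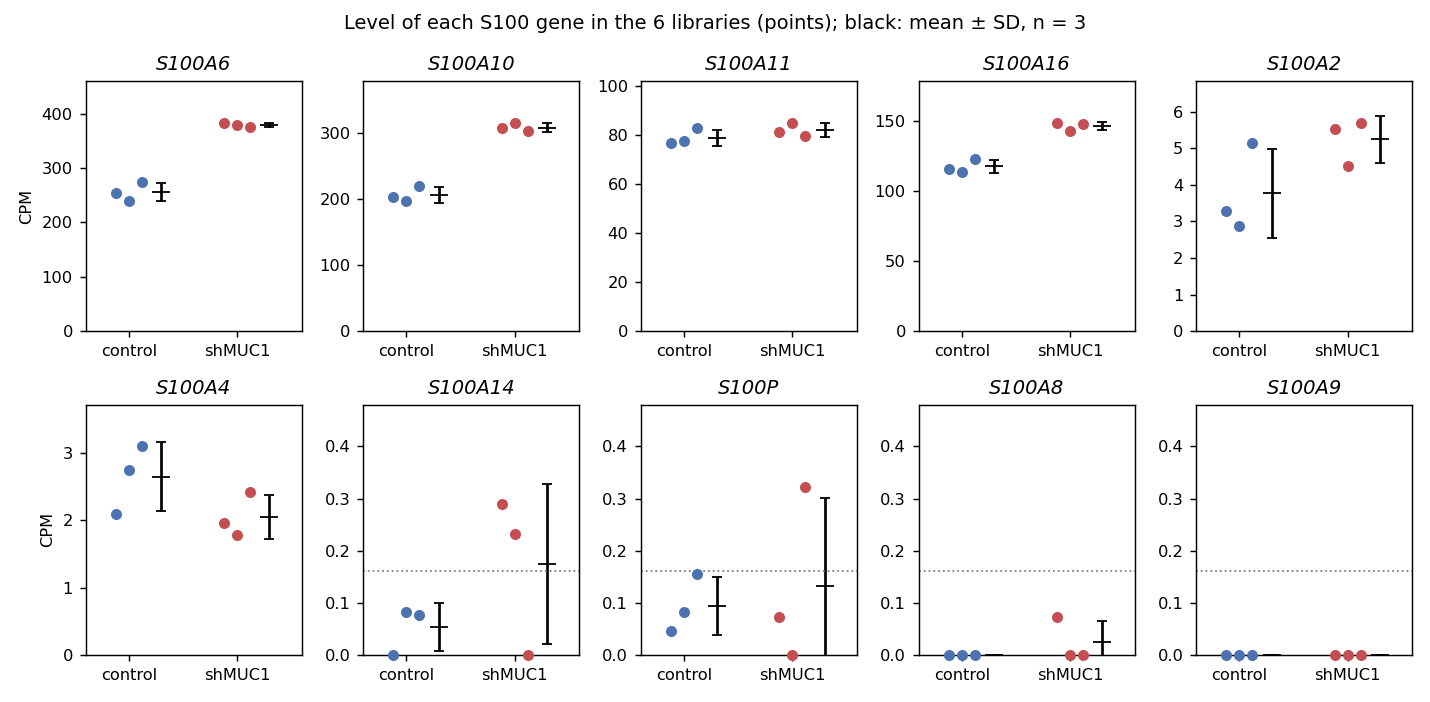
Level of each S100 gene in CPM (y axis, from 0) in every library, with control points in blue, shMUC1 points in red and black marks for the mean ± SD (n = 3). The dotted line, drawn for the 4 lowest genes, is the level of 3 counts in the shallowest library, 0.161 CPM. S100A6, S100A10 and S100A16 separate fully by group and S100A11 does not.

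Among the broadly expressed genes, S100A10 rose and S100A11 did not change detectably. S100A10, also called p11, lacks working calcium loops and forms a tetramer with annexin A2 at the plasma membrane. It had 203, 197 and 220 CPM in control and 308, 316 and 303 CPM in shMUC1 libraries. All shMUC1 values were above all control values. This was a 1.49-fold rise (log2 0.58, SE 0.0368; edgeR adjusted p 6.07e-16). Of the tested genes, 6.97% rose at least as far. S100A11, a calgizzarin that works with annexin A1 in membrane repair, had 76.7, 77.5 and 82.7 CPM in control and 81.2, 85.1 and 79.7 CPM in shMUC1 libraries. The groups overlapped. On the log2 scale the difference was 0.05 (SE 0.0472; edgeR adjusted p 0.364), and its 95% interval, taken as 1.96 SE either side, ran from -0.04 to 0.15, so a rise as large as that of S100A10 lay outside the interval.

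Of the mesenchymal-type genes, S100A6 rose and S100A4 had no call. S100A6, or calcyclin, is tied to proliferation and to the ubiquitin ligase adaptor CACYBP. Its place among the mesenchymal-type genes is loose. In control it stood at 264 CPM per kb of exon, against 2.58 for S100A4. Its rise also came in libraries where, of 14 tested mesenchymal markers, 9 were lower and 2 higher. S100A6 had 255, 240 and 274 CPM in control and 383, 379 and 375 CPM in shMUC1 libraries. The highest control library for S100A6 was well below the lowest shMUC1 library. This was a 1.48-fold rise (log2 0.56, SE 0.0366; edgeR adjusted p 1.11e-15). A rise at least as large was seen in 7.35% of tested genes. S100A4, or metastasin, binds non-muscle myosin IIA and promotes cell migration. It had 46, 67 and 80 counts in control and 54, 46 and 45 in shMUC1 libraries, or 2.10, 2.75 and 3.09 against 1.95, 1.78 and 2.42 CPM. The groups overlapped, since the lowest control library lay inside the shMUC1 range. On the log2 scale the difference was -0.39 (SE 0.246; edgeR adjusted p 0.201), and its 95% interval, from -0.87 to 0.10, held the value found for MUC1.

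Of the 6 epithelial-type genes, only S100A16 and S100A2 had enough counts to test, and both were higher. S100A16 is a widely expressed member with weak calcium binding, so its place among the epithelial-type genes is loose. In control its mean of 117 CPM was above the 79.0 CPM of S100A11, classed as broadly expressed. S100A16 had 116, 114 and 123 CPM in control and 149, 143 and 147 CPM in shMUC1 libraries, with no overlap. This was a 1.25-fold rise (log2 0.32, SE 0.0400; edgeR adjusted p 2.23e-08). A rise at least as large was seen in 17.9% of tested genes. S100A2, a nuclear member of basal epithelial cells and keratinocytes that binds p53, had 72, 70 and 133 counts in control and 153, 116 and 106 in shMUC1 libraries. In CPM these were 3.28, 2.87 and 5.14 against 5.53, 4.50 and 5.69, and control replicate 3 lay inside the shMUC1 range. On the log2 scale it was 0.46 higher (SE 0.188; edgeR adjusted p 0.0395; 95% interval 0.10 to 0.83). The call was lost by DESeq2 (adjusted p 0.117), with library totals as the only scaling (adjusted p 0.0536), and without control replicate 1, control replicate 2, shMUC1 replicate 1 or shMUC1 replicate 3, where the log2 fold change was 0.38, 0.30, 0.42 and 0.41. Without control replicate 3 it was 0.75.

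The other 4 genes classed as epithelial-type, of which S100A8 and S100A9 are best known from neutrophils and monocytes, were at the limit of detection. S100A9, which pairs with S100A8 as calprotectin, was at 0 counts throughout the 6 libraries; at a floor of 3 counts, the shallowest could hide up to 0.161 CPM. S100A8 had 2 counts in shMUC1 replicate 1 and 0 elsewhere. S100A14, an epithelial membrane-associated member, had 0, 2 and 2 counts in control and 8, 6 and 0 in shMUC1 libraries. S100P, a placental member that activates ezrin, had 1, 2 and 4 counts in control and 2, 0 and 6 in shMUC1 libraries. Of the 10 values above 0 among these 4 genes, 9 were even. Even values are common throughout the count table, at 68.85% to 70.53% of all values from 1 to 20 in each library. If both mates were counted, 2 counts are a single fragment, and S100A9 could be hidden at a higher level than the floor of 3 counts gives. No difference was detectable at this depth for any of the 4, and neither presence nor loss of the proteins can be read from these counts.

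Setting genes of different type side by side within a library removes library size from the comparison. The ratio of S100A6 to S100A11 counts was 3.32, 3.09 and 3.31 in control and 4.72, 4.45 and 4.71 in shMUC1 libraries. That of S100A10 to S100A11 was 2.65, 2.54 and 2.66 against 3.79, 3.71 and 3.80. S100A6 and S100A10 kept close to a fixed ratio, which was 1.25, 1.22 and 1.25 in control and 1.25, 1.199 and 1.239 in shMUC1 libraries. The ratio of mesenchymal-type S100A6 to epithelial-type S100A16 went from 2.18 ± 0.0658 to 2.59 ± 0.0534, and that of epithelial-type S100A2 to mesenchymal-type S100A4 went from 1.42 ± 0.332 to 2.57 ± 0.243 (SD, n = 3 each). No values overlapped between groups in these last 2 ratios, which moved toward S100A6 in the first and toward S100A2 in the second. S100A6 and S100A16 are only loosely placed in their types, so the first ratio does not set clear types side by side. With 3 libraries against 3 and genes picked with results known, no test was made of these ratios.

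**Figure D3:**
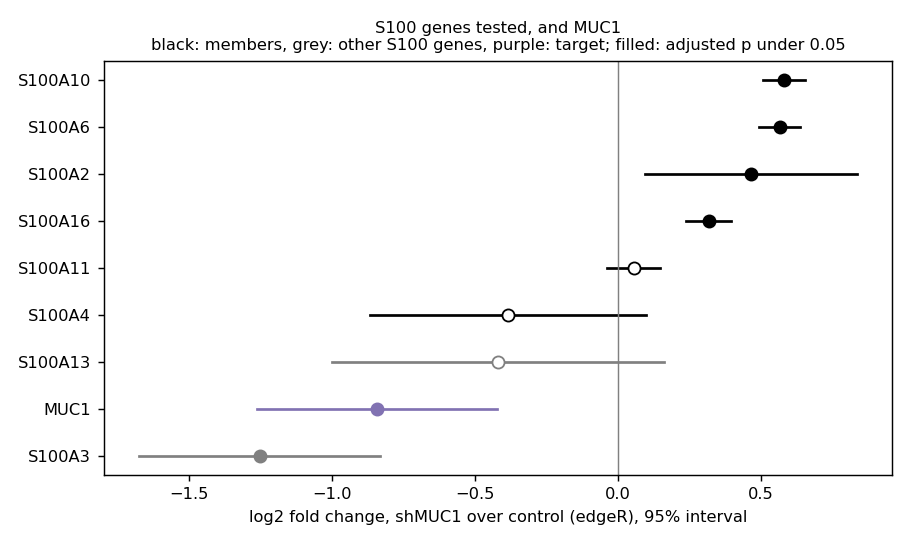
Log2 fold change of shMUC1 over control (x axis) with 95% intervals for the 6 tested members in black, 2 further tested S100 genes in grey and MUC1 in purple, filled where the adjusted p was under 0.05. S100A10, S100A6 and S100A16 have short bars clear of 0, the bar of S100A2 is wide, and S100A3 lies lowest at -1.25.

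Within the tested members the median log2 fold change was 0.39, against 0.000583 over all genes tested. Groups did not overlap in CPM, with shMUC1 higher, for 3 of the 6 (S100A6, S100A10 and S100A16), and for 28.1% of all genes tested. In the other direction 0 of the 6 were separated, against 26.7% of all genes. Both tested epithelial-type genes were higher, 1 of 2 mesenchymal-type genes was, and 1 of 2 broadly expressed genes was, with medians of 0.39, 0.09 and 0.32. No difference between the types was tested, with only 2 tested genes in each.

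The rest of the family was mostly silent, and the clearest change there was downward. Of the 11 other S100 genes (S100A1, S100A3, S100A5, S100A7, S100A7A, S100A7L2, S100A12, S100A13, S100B, S100G and S100Z), 3 had 0 counts in every library (S100A7L2, S100A12 and S100B), and 2 were tested. S100A3, a cysteine-rich member of the hair cuticle, had 110, 84 and 156 counts in control and 56, 59 and 32 in shMUC1 libraries. All shMUC1 libraries were lower, at 2.03, 2.29 and 1.72 CPM against 5.01, 3.45 and 6.03 CPM. In log2 units S100A3 fell by 1.25 (SE 0.215; edgeR adjusted p 6.82e-06), and 2.40% of tested genes fell at least as far. S100A13, a member that helps export growth factors lacking a signal peptide, had 44, 43 and 39 counts in control and 35, 33 and 26 in shMUC1 libraries. Its CPM values did not overlap between groups, but it had no call (log2 -0.42, SE 0.296; edgeR adjusted p 0.253). S100A13 shares 24.2% of its exon bases with AL162258.1 on the same strand and 10.6% with S100A1 on the opposite strand, so its count is uncertain. S100A1 had 0 to 6 counts, S100Z 2 to 4, S100A5 0 to 6, and S100G, S100A7 and S100A7A 0 to 2 counts per library.

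**Figure D4:**
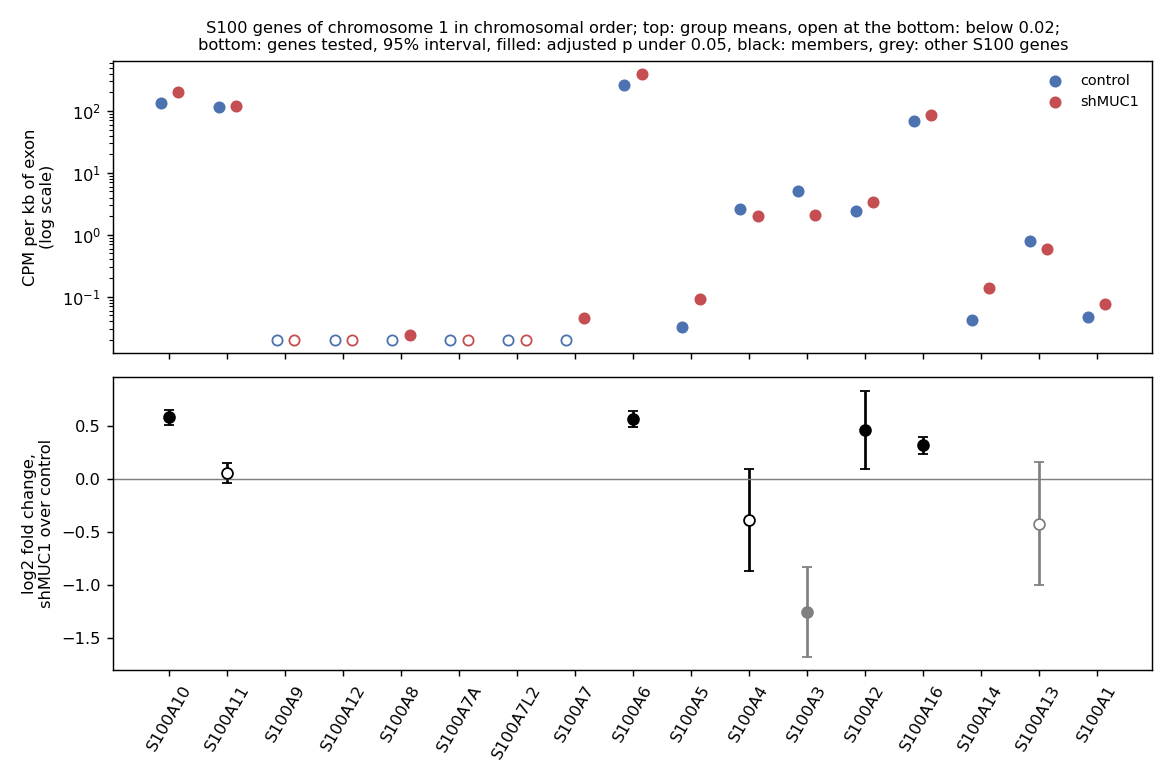
S100 genes of chromosome 1 in their order along the chromosome, with mean CPM per kb of exon on a log scale in the top panel (control blue, shMUC1 red, open points below 0.02) and log2 fold change with 95% intervals for tested genes in the bottom panel. Genes are ordered by their lower coordinate, so S100A3, which fell, is drawn after S100A4, inside whose span it lies, and the stretch from S100A9 to S100A7 is near 0.

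S100A3 lies inside the annotated span of S100A4, shares no exon base with it, and both are on the minus strand. Their 95% intervals, from -1.67 to -0.83 and from -0.87 to 0.10 on the log2 scale, overlapped, and the difference between them was not tested. Over the whole stretch from S100A10 to S100A1, a span of 1649 kb, the annotation held 70 genes outside the S100 family. Of these, 5 were tested, with 0 higher and 2 lower, against 25.2% and 23.6% of all genes tested. The 2 were FLG, which encodes filaggrin, and the antisense gene FLG-AS1, at -0.59 and -0.75 on the log2 scale. A further list held 37 symbols of cornified envelope genes, epidermal differentiation genes and neighbours of the cluster. LOR and LORICRIN in it name 1 gene, counted under LOR, and the other symbols were all found. Of the 36 found, 14 had 0 counts in every library and 8 were tested. There 3 were higher and 1 lower, against 25.2% and 23.6% of all genes tested, with a median of 0.12. Over the alternatives this median ran from 0.04 to 0.24, and it was 0.23, 0.21, 0.04 and 0.24 without control replicate 1, control replicate 2, control replicate 3 and shMUC1 replicate 2. PPL (periplakin, log2 fold change 0.72), THEM4 (0.55) and SCEL (sciellin) were the 3 higher genes, and FLG was the lower one. THEM4 was listed as a neighbour of the cluster and lies outside the stretch from S100A10 to S100A1. SCEL had 0 counts in each control library and 15, 21 and 22 in shMUC1 libraries. Set against a floor of 3 counts per control library, SCEL remained the largest rise of the list. The median therefore could not move from 0.12, and its being unchanged is no check of it.

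Of 38 listed binding partners, receptors and cofactors, 36 had counts and 32 were tested, with 10 higher, 13 lower and a median log2 fold change of -0.04, against 25.2% higher, 23.6% lower and a median of 0.000583 over all genes tested. Of the 28 tested partners averaging 1000 counts or more, 10 were higher and 11 lower, against 39.4% and 29.4% of all genes in that range. The median of the list ran from -0.08 to 0.0019 over the alternatives, the latter without a filter on low counts. Annexins are the best known partners. ANXA2, which binds S100A10, was at 1856 ± 8.93 CPM in control and 2100.5 ± 37.8 CPM in shMUC1 cells (SD, n = 3 each), or 0.18 higher on the log2 scale (SE 0.0250; edgeR adjusted p 1.87e-07). The ratio of S100A10 to ANXA2 counts went from 0.109, 0.106 and 0.119 to 0.144, 0.150 and 0.147. ANXA1 (0.38) and ANXA11 (0.31), which bind S100A11 and S100A6 respectively, were also higher, whereas ANXA6 was lower (-0.56).

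EZR, or ezrin, the membrane linker that S100P activates, was the largest rise that passed the test, at 0.56 on the log2 scale, and S100PBP, which encodes a binding protein of S100P, was at 0.44. S100P itself was near 0 counts. The largest falls were in PLAU (-1.03) and PLAT (-0.82), the plasminogen activators whose substrate plasminogen docks on S100A10, followed by CAPZA2 (-0.65), an actin capping subunit. AHNAK, the giant scaffold that binds the S100A10 and annexin A2 complex, was lower, at -0.20 on the log2 scale (SE 0.0342; edgeR adjusted p 8.38e-06) and at -0.13 without shMUC1 replicate 2, and CACYBP, the S100A6 partner, had no call at an adjusted p of 0.878.

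**Figure D5:**
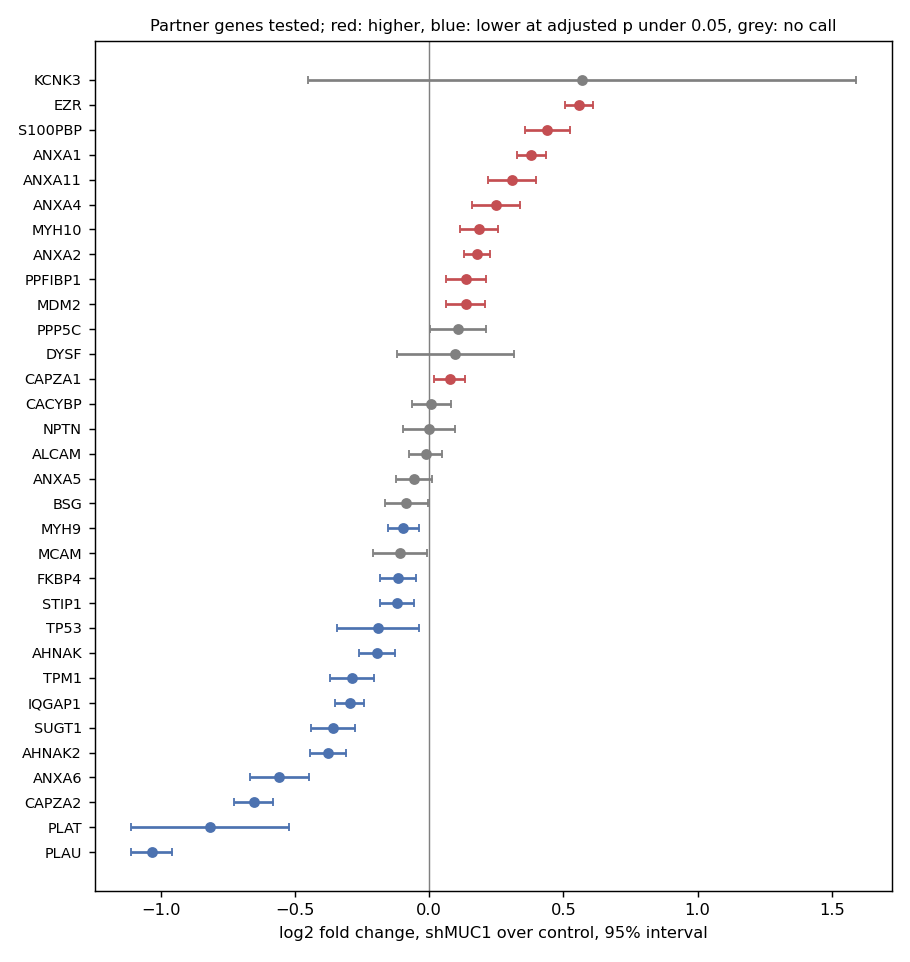
Log2 fold change of shMUC1 over control (x axis) with 95% intervals for the 32 tested partner genes, red where higher (10), blue where lower (13) and grey where without a call. EZR and S100PBP lead the rises that passed the test, and PLAU and PLAT lie at the low end.

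Markers of cell state moved in the same libraries. Of 20 epithelial markers, 10 were tested, 6 were higher and 2 lower (CLDN3 at -1.31 and CLDN4 at -0.70 on the log2 scale), against 25.2% and 23.6% of all genes tested. Their summed level went from a range of 560 to 596 CPM in control to 1133 to 1170 CPM in shMUC1 libraries, most of it from KRT8 and KRT18. GRHL2, ST14 and OVOL1, regulators and a protease of epithelia, had 0 counts in every library. Of 16 mesenchymal markers, 14 were tested, 2 were higher (FN1 and SNAI2) and 9 lower, and the summed level went from 2526 to 2542 CPM down to 2237 to 2291 CPM. VIM, the mesenchymal intermediate filament, was at -0.78 on the log2 scale, and among repressors known to bind the E-box ZEB1 and ZEB2 fell (-0.97 and -1.83) while SNAI2 rose (1.14). Whether these changes have a part in those of the S100 genes was not tested.

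Myeloid markers were checked because of S100A8 and S100A9. Of 13 neutrophil and monocyte markers, 6 had 0 counts in all libraries, among them MPO and CEACAM8, and 3 were tested. CD14 and PTPRC were higher (log2 fold changes of 1.08 and 1.59), against 25.2% of all genes tested. Only CD14 averaged 50 counts or more, so the value for PTPRC rests on few counts. ITGAM had no call (-1.02; 8, 18 and 12 counts in control and 8, 0 and 10 in shMUC1 libraries; edgeR adjusted p 0.183). CSF3R and ELANE had counts in control libraries only, of at most 4. The summed level of the list, mostly CD14, was from 3.98 to 4.18 CPM in control and from 6.499 to 9.23 CPM in shMUC1 libraries. S100A9 was at 0 counts in these same libraries.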

How the data were processed

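RNA of MDA-MB-436 cells was sequenced from TruSeq Stranded mRNA libraries, 3 control and 3 shMUC1. Raw counts, with rows named by gene symbol and 1 column for each library, were what the authors deposited. Among the rows, 2 symbols were repeated and 14 names read as dates. Per the submitters' processing notes, CASAVA 1.8.2, STAR 2.7.9a, featureCounts, DESeq2 1.24.0 and build GRCh38.p7 were named; the annotation release and the strand and read-pair settings were not given in the sources used here.

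Counts were fitted over the whole table with edgeR 4.0.16 (R 4.3.3): TMM scaling, filterByExpr, quasi-likelihood F test, group as the only term, two-sided, Benjamini-Hochberg adjustment over 15355 genes. CPM used TMM-scaled totals, and SE was the absolute log2 fold change over the root of F. The labels name triplicate cultures; if these were not separate, p-values measure technical spread. Floors cover counting error only, with each count taken as a separate fragment.

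The members, their types, the lists and the rule for named genes (all 10 members, other S100 genes with counts, ANXA2, AHNAK, CACYBP and the up to 4 largest called rises and falls per list with a mean of at least 50 counts; marker genes as a count of the list needs) were chosen with earlier results of these data known. SCEL, FLG-AS1, ITGAM, CSF3R and ELANE were named after their values were seen. Gene models came from GENCODE release 29, whose symbols matched 98.15% of rows. Alternatives were DESeq2 1.42.0, limma-voom (limma 3.58.1), other scalings and filters, a replicate block, halved counts and each library left out.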

Additional observations from a re-analysis of the deposited data

How the results depend on the processing

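Over 14 alternatives for each of the 6 tested members, 78 of 84 values held in sign and in call, 6 lost the call and 0 reversed. All 6 were of S100A2, with a log2 fold change of 0.47 by DESeq2 (adjusted p 0.117), 0.44 with library totals as the only scaling (adjusted p 0.0536), and a range from 0.30 to 0.75 over the fits that each left out 1 library (adjusted p from 0.00225 to 0.218). The cause was not tested. S100A6 ranged from 0.52 to 0.60, S100A10 from 0.55 to 0.62, S100A16 from 0.29 to 0.34, S100A11 from 0.03 to 0.08 and S100A4 from -0.52 to -0.27. From 3 to 4 members were higher and 0 lower throughout. S100A3 ranged from -1.45 to -1.07. CACYBP turned sign, at -0.0138 with library totals only and -0.0148 when only genes averaging 50 counts were fitted, and ranged from -0.0334 to 0.0333 without 1 library. The cause was not tested.

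Replicate numbers did not pair the libraries, since deviations from the group mean correlated at only 0.0167, -0.0311 and -0.0359 between libraries sharing a number. With the replicate block, S100A2 was at 0.50 and S100A6 at 0.57, and no call among the tested members changed. S100A13 was not tested at a mean of at least 50 counts. Depth limits S100A2 and S100A4, with 153 counts or fewer per library, and leaves S100A8, S100A9, S100A14 and S100P unmeasured.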
